A study of Mus musculus with 9 samples.

Results

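The leukocyte integrins and a selectin ligand were followed in FDCPmix cells, a multipotent mouse blood progenitor line, after knockdown (KD) of Gata2 or of Pu.1. The set held 9 genes of 16535 genes that could be named on the array, namely Itgam, Itgax, Itgal, Itgb2, Itga4, Itgb1, Itgb7, Itga6 and Selplg. Its members were chosen by gene identity, with earlier results of these data known. Every probe whose transcript accession belongs to one of these genes was taken, which gave 13 probes of 41174. All 13 probes read well above background on all 9 arrays and all were among the 36585 probes tested.

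Cells kept in self-renewal conditions in Fischer's medium were transduced with lentivirus carrying shRNA against Gata2 (the Gata2 KD group), shRNA against Pu.1 (the Pu.1 KD group) or the empty vector (EV), and every group therefore carried the vector. After 5 days the viable cells that expressed GFP were sorted, and 150 ng of total RNA per sample was read on single-color Agilent whole mouse genome arrays, with 3 arrays in each group. The shRNAs were carried by a Lentilox vector, and the number of hairpin sequences for each target is not given in the labels. The paper describes the transduced cell samples as triplicate and does not say whether they came from separate cultures. The p-values measure the spread between these samples, which may be less than that between separate cultures.

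Integrins are cell surface receptors made of an alpha and a beta chain, and they let blood cells hold on to other cells and to matrix. Itgb2 encodes the shared beta chain (CD18) of the leukocyte integrins, which pairs with the alpha chains encoded by Itgam (CD11b, a surface marker of granulocytes and monocytes), Itgax (CD11c, best known from dendritic cells) and Itgal (CD11a). Itga4 encodes the alpha chain of receptors for VCAM1 and fibronectin when paired with the product of Itgb1, and of the gut homing receptor for MADCAM1 when paired with that of Itgb7. Itga6 encodes an alpha chain of laminin receptors. Selplg encodes PSGL1, the mucin by which rolling leukocytes bind P-selectin, once it has been decorated by fucosyl- and sialyltransferases. A chain reaches the surface only with its partner, and surface protein was not measured here.

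A level is given as the log2 of the processed intensity minus the log2 of the 75th percentile of the same array, so that 0 is the brightness of that percentile. A change is the difference of the group means on this scale with its standard error (SE), and a call is an adjusted p under 0.05 from limma, adjusted by the Benjamini-Hochberg method over every probe tested. Between 80.4% and 89.6% of the spots on an array were well above background, no spot was saturated, and the 3 slides each carried 1 array of every group, so changes could also be read within a slide. Array EV 3 was the least like the other arrays. Kit, Cd34 and Ptprc, which mark blood progenitors and leukocytes, were well above background on all 9 arrays. Gata2 fell by 1.63 (SE 0.23) in Gata2 KD with an adjusted p of 0.00398, and Spi1, which encodes PU.1, rose there by 1.37 (SE 0.15) with an adjusted p of 0.00129. Spi1 fell by 1.74 (SE 0.15) in Pu.1 KD with an adjusted p of 0.0018, whereas the Gata2 change there was -0.15 (SE 0.23) with an adjusted p of 0.962.

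Promoter sequence was available for 5 of the 9 members in RefSeq (GRCm38.p6), as windows from 250 bases before to 50 bases after the start of the gene. Those of Itgam, Itgax and Itgb7 are shown because Itgam and Itgb7 were the members called in Gata2 KD, and because Itgax is the gene next to Itgam on chromosome 7. Capitals mark GAGGAA, a core bound by PU.1, or AGATAA, a core bound by GATA factors, read on either strand. A GAGGAA match on the other strand appears as its reverse complement TTCCTC. The paper's own consensus motifs were GGAAGTG for PU.1 and AGATAAG for GATA1 and GATA2. For GATA2 but not GATA1 it also reported related motifs, among them repeats and palindromes of WGAT, where W is A or T. None of these motifs was counted over all windows. GGAAGTG does occur, unmarked, in the Itgax window. Its reverse complement CACTTCC overlaps the marked match in the Itgb7 window, and the Itgam window holds neither form. The windows lie at chr7:128062390-128062689 on the plus strand, chr7:128129300-128129599 on the plus strand and chr15:102231886-102232185 on the minus strand, in that order.
Itgam: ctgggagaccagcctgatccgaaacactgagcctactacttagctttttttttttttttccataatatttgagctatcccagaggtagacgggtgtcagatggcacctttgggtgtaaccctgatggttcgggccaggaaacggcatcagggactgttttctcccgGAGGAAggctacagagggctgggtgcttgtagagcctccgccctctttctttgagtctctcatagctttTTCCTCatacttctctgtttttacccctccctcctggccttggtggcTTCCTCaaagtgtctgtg
Itgax: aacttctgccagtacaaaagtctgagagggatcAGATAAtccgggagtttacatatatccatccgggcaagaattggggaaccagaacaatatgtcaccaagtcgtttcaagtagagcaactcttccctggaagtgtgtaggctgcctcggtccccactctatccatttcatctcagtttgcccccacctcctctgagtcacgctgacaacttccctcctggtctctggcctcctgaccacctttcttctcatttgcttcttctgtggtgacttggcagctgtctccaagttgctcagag
Itgb7: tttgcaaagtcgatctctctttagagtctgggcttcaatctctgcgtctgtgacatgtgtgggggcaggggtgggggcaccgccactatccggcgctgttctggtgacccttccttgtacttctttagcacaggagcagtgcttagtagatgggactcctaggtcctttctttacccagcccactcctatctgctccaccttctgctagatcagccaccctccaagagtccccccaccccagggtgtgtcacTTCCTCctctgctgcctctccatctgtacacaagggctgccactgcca
The letters GAGGAA were found 3 times in the Itgam window, beginning at positions -84, -15 and 33 from the start of the gene, once in the Itgb7 window at position 3 and not in the Itgax window. Of the 32817 windows in the table, 28.3% held GAGGAA at least once and 0.69% held it 3 times or more. The Itgb1 window held 1 match and the Itga4 window none. AGATAA was found in 11.2% of all windows and, among the 5 members, in that of Itgax alone. These matches describe the letters of the windows, and binding was not measured on these arrays.

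In Gata2 KD, Itgam and Itgb7 rose and no member fell. In Pu.1 KD no member passed the threshold. The calls were 2 of 9 members in Gata2 KD, against 5.17% of all tested probes, and 0 of 9 in Pu.1 KD, against 2.63%. Before adjustment the p was under 0.05 for 3 members higher (Itgam, Itgb2 and Itgb7) and 0 lower in Gata2 KD, and for 1 higher (Itga6) and 1 lower (Itgam) in Pu.1 KD. The same limit was passed by 5.85% of all probes higher and 9.13% lower in Gata2 KD, and by 5.65% higher and 6.67% lower in Pu.1 KD. When both knockdowns were set against each other, Itgam, Itgb2 and Itgb7 were higher and Itga6 was lower in Gata2 KD. This made 4 of 9 members against 9.61% of all probes. Over the 15808 tested genes, read from their brightest probe as the members were, 4.05% were called higher and 3.07% lower in Gata2 KD. These gene shares were 1.41% and 2.12% in Pu.1 KD, and 6.55% and 5.82% in the direct comparison. The median change of the 9 members was 0.06 in Gata2 KD and -0.15 in Pu.1 KD, beside -0.11 and -0.05 over the 15808 tested genes. Both comparisons with EV share the EV arrays.

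**Figure D1:**
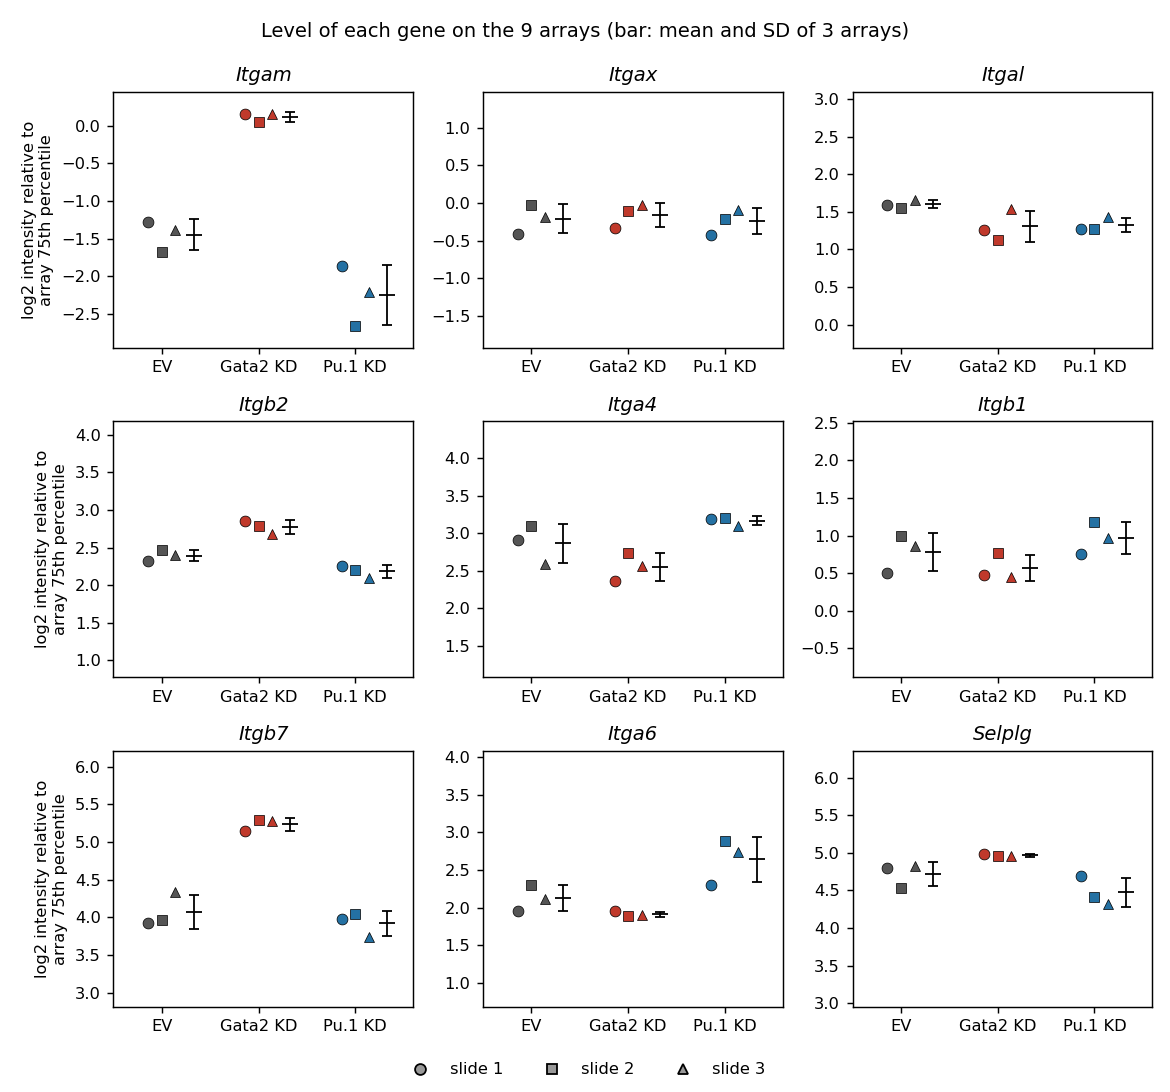
Log2 level of each of the 9 genes on each array, on the scale of that array's 75th percentile, by group, with marker shape for the slide and a bar for the mean and SD of 3 arrays; every panel spans the same range. Itgam and Itgb7 stand apart in Gata2 KD, and the 3 groups of Itgax overlap.

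Itgam was the member with the widest changes. It read -1.29, -1.68 and -1.38 on EV arrays 1 to 3, and 0.04, 0.16 and 0.15 on the Gata2 KD arrays. On the Pu.1 KD arrays it read -2.22, -2.66 and -1.86. The Gata2 KD arrays were all above the EV arrays and the Pu.1 KD arrays were all below them, so that the 3 groups did not overlap. Itgam rose 2.96-fold in Gata2 KD (log2 change 1.57, SE 0.21, adjusted p = 0.00364), and the change within a slide ran from 1.43 to 1.73. The change in Pu.1 KD was -0.80 (SE 0.21, 95% interval -1.29 to -0.31) with an adjusted p of 0.116. Its sign was the same within each slide, at -0.98 to -0.58. The adjusted p of this Pu.1 KD change was 0.0322 with the slide as a block, 0.0316 after quantile normalization and 0.0444 on the deposited log2 values, so this call turned on the processing.

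Itgb2, the chain with which Itgam pairs, moved by less than Itgam. It read 2.31, 2.46 and 2.40 in EV, 2.78, 2.68 and 2.86 in Gata2 KD and 2.09, 2.20 and 2.25 in Pu.1 KD. Here too the Gata2 KD arrays were the highest and the Pu.1 KD arrays the lowest with no overlap. The change of 0.38 (SE 0.12, 95% interval 0.10 to 0.67) in Gata2 KD had an adjusted p of 0.159, and that of -0.21 (SE 0.12, 95% interval -0.49 to 0.08) in Pu.1 KD one of 0.645. On the deposited log2 values the Gata2 KD change was 0.50 and was called (adjusted p = 0.0143).

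Itgax and Itgal, the other alpha partners of Itgb2, were not called in any comparison. Itgax read -0.41, -0.03 and -0.19 in EV, -0.10, -0.02 and -0.33 in Gata2 KD and -0.09, -0.21 and -0.42 in Pu.1 KD, and the 3 groups overlapped. Its change was 0.06 in Gata2 KD (95% interval -0.32 to 0.43) and -0.03 in Pu.1 KD (95% interval -0.41 to 0.35). Itgax follows Itgam directly on chromosome 7, yet the interval of its Gata2 KD change lies wholly below that of Itgam. Itgal, whose product forms the lymphocyte integrin with that of Itgb2, read 1.60, 1.55 and 1.66 in EV. It read 1.13, 1.54 and 1.26 in Gata2 KD and 1.43, 1.27 and 1.27 in Pu.1 KD. All 6 knockdown arrays lay below the EV arrays for Itgal, by -0.29 (SE 0.14, adjusted p = 0.42) in Gata2 KD and by -0.28 (SE 0.14, adjusted p = 0.543) in Pu.1 KD.

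Itgb7, the other called member, encodes a beta chain that pairs with the products of Itga4 and Itgae. It read 3.93, 3.96 and 4.33 in EV and 5.29, 5.28 and 5.14 in Gata2 KD. In Pu.1 KD it read 3.74, 4.05 and 3.98. The Gata2 KD arrays lay above all others, and the EV and Pu.1 KD arrays overlapped. Itgb7 rose 2.24-fold in Gata2 KD (log2 change 1.16, SE 0.16, adjusted p = 0.00385), with 0.95 to 1.33 within a slide. Its change in Pu.1 KD was -0.15 (SE 0.16, 95% interval -0.52 to 0.22, adjusted p = 0.911). The calls of Itgam and Itgb7 in Gata2 KD were kept under all 21 alternative settings, with adjusted p-values up to 0.024 and 0.026.

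Itga4 was read by 3 probes. The brightest read 2.92, 3.10 and 2.59 in EV, 2.73, 2.56 and 2.36 in Gata2 KD and 3.09, 3.21 and 3.19 in Pu.1 KD, and both knockdowns overlapped with EV. Its change was -0.31 (SE 0.17, adjusted p = 0.49) in Gata2 KD and 0.30 (SE 0.17, adjusted p = 0.62) in Pu.1 KD. The other probes gave -0.43 and -0.63 in Gata2 KD, in the same direction as the brightest, but -0.02 and 0.00 in Pu.1 KD, where they did not repeat its positive value. Itgae, whose product also pairs with that of Itgb7, changed by -0.26 (SE 0.12, adjusted p = 0.396) in Gata2 KD and by -0.08 in Pu.1 KD.

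Itgb1, the common beta chain of matrix receptors, was not called and its groups overlapped in all 3 comparisons on the brighter probe. That probe read 0.50, 0.99 and 0.86 in EV, 0.77, 0.45 and 0.48 in Gata2 KD and 0.96, 1.18 and 0.75 in Pu.1 KD. Its change was -0.22 (SE 0.19, adjusted p = 0.771) in Gata2 KD and 0.18 (SE 0.19, adjusted p = 0.904) in Pu.1 KD, and the dimmer probe gave -0.15 and 0.11. Itga6 read 1.96, 2.30 and 2.11 in EV, 1.89, 1.90 and 1.95 in Gata2 KD and 2.74, 2.88 and 2.30 in Pu.1 KD. Of the members it had the largest positive change in Pu.1 KD, 0.52 (SE 0.18, 95% interval 0.11 to 0.93), although the third Pu.1 KD array was level with the second EV array and the adjusted p was 0.237. On the deposited log2 values it was called there (0.61, adjusted p = 0.0315). In Gata2 KD the change of Itga6 was -0.21 (SE 0.18, adjusted p = 0.763).

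Selplg, the selectin ligand, was read by 2 probes. The brighter one read 4.80, 4.54 and 4.83 in EV, 4.95, 4.96 and 4.99 in Gata2 KD and 4.32, 4.41 and 4.69 in Pu.1 KD. The Gata2 KD arrays were above all EV arrays, and EV and Pu.1 KD overlapped. The change was 0.24 (SE 0.15, adjusted p = 0.573) in Gata2 KD and -0.25 (SE 0.15, adjusted p = 0.656) in Pu.1 KD. The dimmer probe gave 0.38 in Gata2 KD and -0.05 in Pu.1 KD, where 1 array had no value because of an outlier flag.

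**Figure D2:**
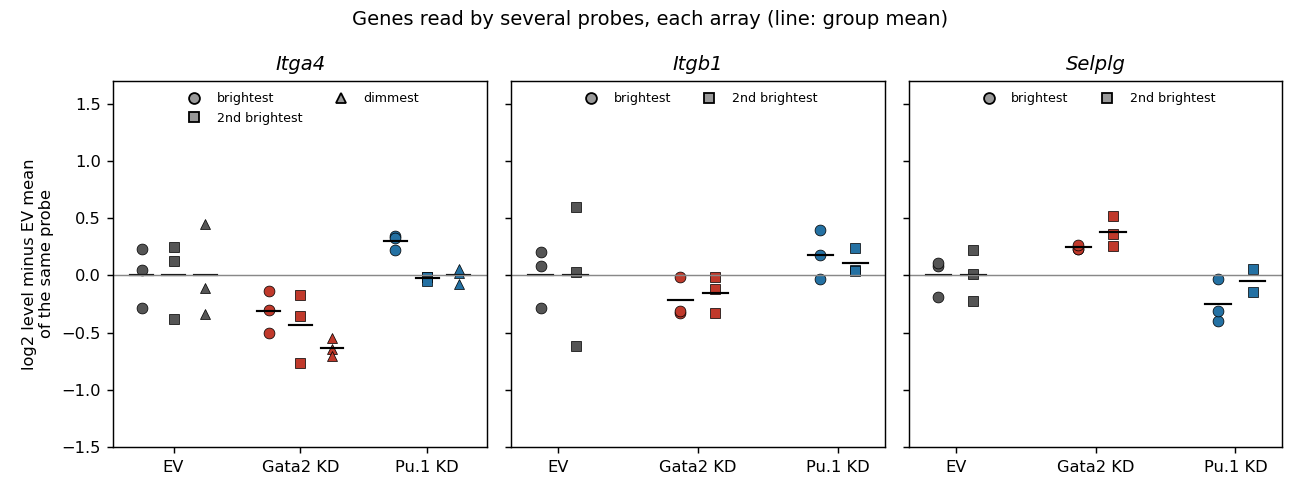
Genes with several probes, each array shown as its log2 level minus the EV mean of the same probe, with a line for the group mean and marker shape for the probe in order of brightness. The 3 Itga4 probes lie below 0 on average in Gata2 KD, and only the brightest lies above 0 in Pu.1 KD.

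Setting the knockdowns against each other gave the widest differences for Itgam, which was 5.15-fold higher in Gata2 KD than in Pu.1 KD (log2 difference 2.36, SE 0.21, adjusted p = 0.000208). Itgb7 was 2.49-fold higher in Gata2 KD (1.31, SE 0.16, adjusted p = 0.00111), and Itgb2 was 1.51-fold higher (0.59, SE 0.12, adjusted p = 0.019). Within a slide the Itgb2 difference lay between 0.58 and 0.61. Itga6 was lower in Gata2 KD, by -0.73 on the log2 scale (SE 0.18, adjusted p = 0.0373). The Itgb2 call was lost without any 1 of the 6 knockdown arrays (adjusted p 0.0514 to 0.0863), and that of Itga6 was lost without any of the Gata2 KD arrays and without the first or second Pu.1 KD array (0.104 to 0.138). Selplg (0.49, adjusted p = 0.0875) and Itga4 (-0.61, adjusted p = 0.0644) missed the threshold and passed it with the slide as a block, at 0.0433 and 0.0289. Of the 21 alternative settings, 4 gave a call of Selplg and 6 a call of Itga4. Without the array EV 3 the adjusted p of Itga4 was 0.0352, as that array enters the shared estimate of the spread. Itgb1 (-0.40, adjusted p = 0.315), Itgax (0.09, adjusted p = 1.00) and Itgal (-0.02, adjusted p = 1.00) were not called.

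Over all tested probes the groups did not overlap for 19.0% in Gata2 KD against EV, 17.2% in Pu.1 KD against EV and 26.0% in Gata2 KD against Pu.1 KD. Of the 9 members, 6, 3 and 6 did not overlap. In Gata2 KD these were Itgam, Itgb2, Itgb7 and Selplg above EV, and Itgal and Itga6 below it. In Pu.1 KD they were Itgam, Itgal and Itgb2, all below EV.

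**Figure D3:**
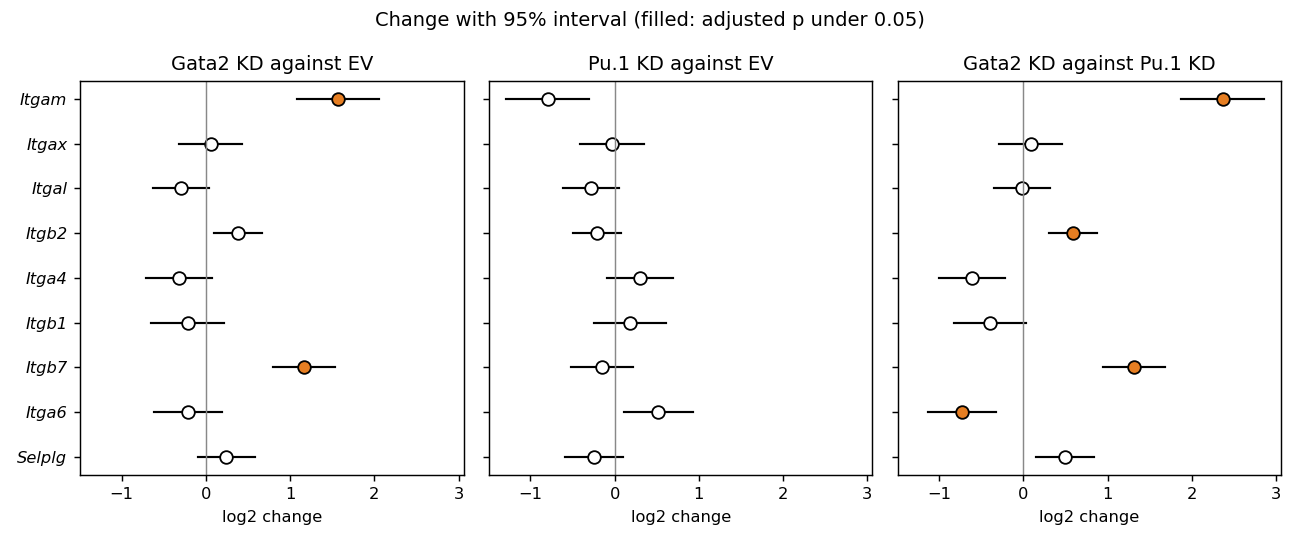
Change of the 9 genes on the log2 scale in each comparison, with the 95% interval and filled points for an adjusted p under 0.05. Itgam and Itgb7 are filled in Gata2 KD against EV, no gene is filled in Pu.1 KD against EV, and 4 genes are filled in the direct comparison.

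Chains that form one receptor were compared by the change of their ratio. The pairs were chosen after the values were seen, and their ratios, which compare changes and not levels, are given without a test. The log2 ratio of Itgam to Itgb2 rose by 1.19 from EV to Gata2 KD (0.89 to 1.41 within a slide), and the groups did not overlap. The ratio of Itga4 to Itgb7 fell by 1.48, with -1.77 to -0.97 within a slide. The ratio of Itgal to Itgb2 changed by -0.67 with no overlap. That of Itga6 to Itgb1 changed by 0.01 and that of Itga4 to Itgb1 by -0.10, both with overlapping groups. That of Itgax to Itgb2 changed by -0.32, again with overlap. Itga6 also pairs with the product of Itgb4, which is not a member. The ratio of Itga6 to Itgb4 rose by 0.73 with no overlap (0.67 to 0.77 within a slide). How often the ratios of other gene pairs show no overlap was not tested.

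Other genes of adhesion were read from lists of integrin subunits, integrin signalling, integrin ligands, selectins with their ligands, and enzymes of selectin ligand synthesis. Of 90 genes listed, 82 were tested. In Gata2 KD 12 of them rose and 5 fell, in Pu.1 KD none rose and 9 fell, and in the direct comparison 22 were higher and 7 lower in Gata2 KD. Over all 15808 tested genes, 4.05% rose and 3.07% fell in Gata2 KD, 1.41% rose and 2.12% fell in Pu.1 KD, and 6.55% were higher and 5.82% lower in the direct comparison. The median change of the 82 genes was 0.04 in Gata2 KD and -0.09 in Pu.1 KD. At an unadjusted p under 0.05, limma gave 7 genes higher and 17 lower in Pu.1 KD. The 17 calls in Gata2 KD became 10 without the second Gata2 KD array and 11 without the first EV array, and the 9 calls in Pu.1 KD became 1 to 5 without any 1 array other than the first of Gata2 KD.

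Among 16 other integrin subunits, 2 rose and 1 fell in Gata2 KD, and none was called in Pu.1 KD, where the unadjusted p was under 0.05 for 2 higher and 1 lower. Itgb5, a beta chain that pairs with the alpha chain encoded by Itgav, rose 15.2-fold (log2 change 3.92, SE 0.26, adjusted p = 7.0e-05). Itgb2l, a gene related to Itgb2, rose 9.28-fold (3.21, SE 0.17, adjusted p = 3.06e-05). Both changes were wider than those of Itgam and Itgb7. Both genes were dim in EV, with mean levels of -3.36 for Itgb5 and -2.45 for Itgb2l, and their fold sizes depended on the processing. Under the alternatives the log2 change ran from 2.88 to 4.24 for Itgb5 and from 2.51 to 3.34 for Itgb2l. Itgb4, a partner of Itga6, fell by 0.94 (SE 0.13, adjusted p = 0.00365), and its second probe fell by 1.15 (adjusted p = 0.00179). Itgav, the alpha partner of Itgb5, changed by -0.52 in Gata2 KD (SE 0.16, adjusted p = 0.125), and Itga5, another partner of Itgb1, by 0.04. The Itgav probe was dimmer in EV than those of Itgb5 and Itgb2l, with a mean level of -4.29. Itga2b, the platelet alpha chain, was not called against EV (-0.33 and 0.88), and its direct difference, Gata2 KD minus Pu.1 KD, was -1.22 (adjusted p = 0.0269).

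Of 28 genes of integrin activation and signalling, 6 rose in Gata2 KD and 2 fell in Pu.1 KD. Fgr, which encodes a Src family kinase of myeloid cells, rose 5.37-fold in Gata2 KD (log2 change 2.42, SE 0.25, adjusted p = 0.000758). Its mean EV level was -3.02, and its log2 change ran from 1.75 to 2.67 under the alternatives. Syk, a kinase that acts after the Src family, rose by 1.31 (adjusted p = 0.0108), a call lost without the second Gata2 KD array (adjusted p = 0.059). Cytip, Pxn and Vav3 rose as well. In Pu.1 KD Lyn, a further Src family kinase, fell by 1.18 (adjusted p = 0.0281). The talin gene Tln1 (0.31 and 0.25) and the kindlin gene Fermt3 (0.10 and 0.48), whose products switch integrins on, were not called in either knockdown.

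Among 9 selectins and selectin ligands other than Selplg, 4 rose and 1 fell in Gata2 KD, and 3 fell in Pu.1 KD. Cd34, a sialomucin of progenitors that can carry selectin ligands, rose by 2.15 (SE 0.17, adjusted p = 0.000156) in Gata2 KD and fell by 0.92 (adjusted p = 0.0263) in Pu.1 KD. Cd44, the hyaluronan receptor, rose by 1.97 (adjusted p = 0.000272) in Gata2 KD. Of its other probes 1 gave 1.92 and 1 gave 0.08, so the Cd44 probes did not all show the rise. Selp, which encodes P-selectin, rose by 0.58 (adjusted p = 0.0344), and Podxl fell by 1.85 (adjusted p = 0.0222), both in Gata2 KD. The Podxl call was lost without the first or second array of EV or of Gata2 KD (adjusted p 0.062 to 0.102), while its second probe fell by 1.37 (adjusted p = 0.00487). Cd24a fell by 1.34 (adjusted p = 0.0271) in Pu.1 KD, and its change there was -0.531 and not called with normexp background correction.

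The enzymes that decorate selectin ligands were mostly not called, with 1 of 15 lower in Gata2 KD and 3 of 15 lower in Pu.1 KD. Fut7, the leukocyte fucosyltransferase that completes the selectin ligand, fell by 0.71 (SE 0.14, adjusted p = 0.0228) in Gata2 KD and by 0.79 (SE 0.14, adjusted p = 0.0256) in Pu.1 KD. Fut4, a further fucosyltransferase, fell by 0.89 (adjusted p = 0.0226) and the sialyltransferase gene St3gal3 by 0.93 (adjusted p = 0.0176) in Pu.1 KD, where the second St3gal3 probe gave -0.34 (adjusted p = 0.773). Of 14 integrin ligands, Icam4 fell by 1.14 (adjusted p = 0.000881) and the laminin chain gene Lamc1 by 0.68 (adjusted p = 0.0414) in Gata2 KD. Icam1, which encodes a ligand of the Itgb2 integrins, fell by 1.28 (adjusted p = 0.0357) in Pu.1 KD. The Icam1 change there was -0.605 and not called with normexp background correction. The Pu.1 KD calls of Lyn, Icam1, Cd24a, Cd34, Fut4 and Fut7 were each lost under 10 or more of the 21 alternative settings, as was the Gata2 KD call of Lamc1. Leaving out 1 array ended the Gata2 KD call of Fut7 for the first or second EV array and Gata2 KD array 2 or 3 (adjusted p 0.0679 to 0.103), and the Pu.1 KD call of St3gal3 for the first EV array and each Pu.1 KD array (0.0614 to 0.0748). It ended the calls of Lyn, Icam1, Cd24a, Cd34, Fut4 and Fut7 in Pu.1 KD and of Lamc1 in Gata2 KD for 6 to 8 of the 9 arrays.

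**Figure D4:**
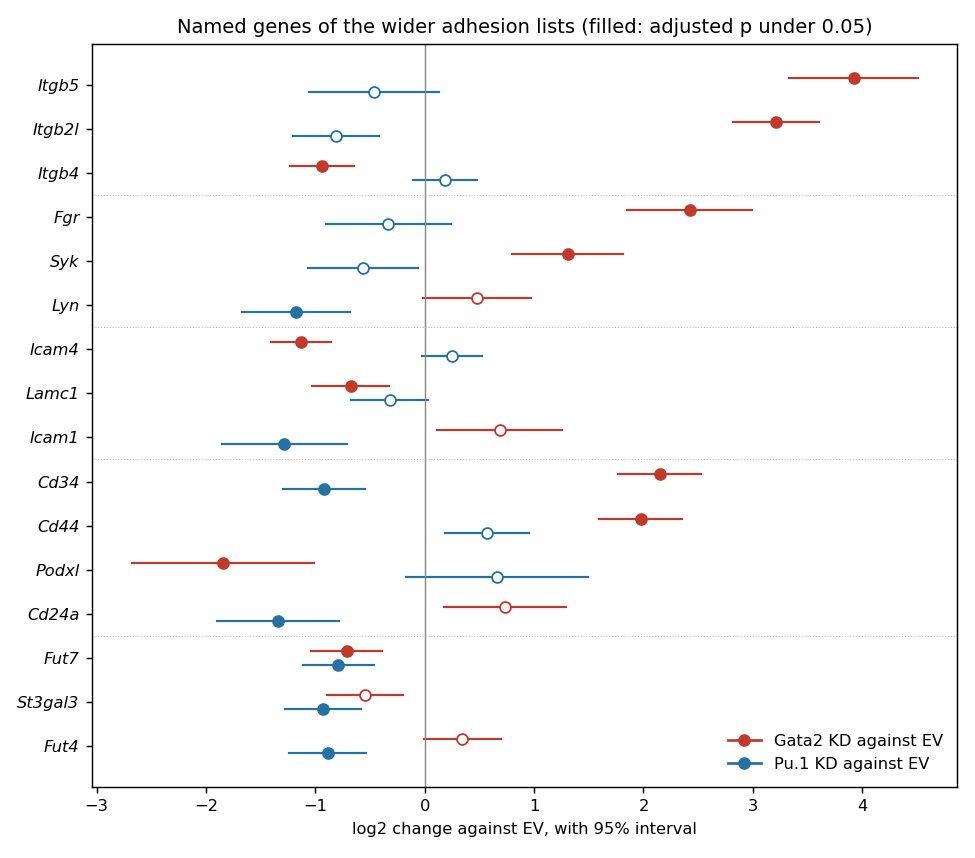
Change against EV on the log2 scale, with 95% intervals, of the named genes in the wider adhesion lists, red for Gata2 KD and blue for Pu.1 KD, with filled points for an adjusted p under 0.05 and dotted lines between lists. Cd34 is filled on opposite sides of 0, and Fut7 is filled below 0 in both.

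The genes whose levels followed Itgam most closely over the 9 arrays, by the root mean square difference of log2 levels after each gene was centred on its own mean, were Sh2d3c (0.206), Tnfrsf14 (0.209) and Rspo1 (0.213) of 15774 genes searched. Itgam itself had a standard deviation of 1.01 over the arrays. For Itgb7, with a standard deviation of 0.60, they were Slpi (0.105), Bckdha (0.114) and Msra (0.117).

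Markers of several mature cell types moved with the groups. Of 15 tested neutrophil markers, 13 rose in Gata2 KD and 10 fell in Pu.1 KD, and their summed level (each level as a multiple of the 75th percentile) was 237 to 267 in EV, 1100 to 1320 in Gata2 KD and 104 to 122 in Pu.1 KD. All 15 were well above background on every array. Of 12 tested monocyte and macrophage markers, 7 rose in Gata2 KD and 2 fell in Pu.1 KD, with sums of 5.77 to 7.1, 41.9 to 46.4 and 3.73 to 4.99 in the same order. Mast cell and basophil markers went the other way in Gata2 KD, with 8 of 10 lower, and in Pu.1 KD 3 were lower and 1 higher. Their sums were 142 to 162 in EV, 29.2 to 32.2 in Gata2 KD and 112 to 119 in Pu.1 KD. Of 6 eosinophil markers 2 rose in Gata2 KD and 4 fell in Pu.1 KD, with sums of 3.57 to 4.92 in EV, 10.6 to 14 in Gata2 KD and 1.35 to 1.52 in Pu.1 KD. Of 9 erythroid markers 2 fell in Gata2 KD and 2 rose in Pu.1 KD, with sums of 17.5 to 21.2, 13.5 to 18.5 and 24.3 to 27.5 in the same order. Of the dendritic cell markers 1 of 10 rose and 1 fell in Gata2 KD, and of 7 T and NK cell markers none was called against EV, with 1 higher at an unadjusted p under 0.05 in Pu.1 KD and 0 in Gata2 KD. Among 8 tested B cell markers none was called in Gata2 KD and 1 fell in Pu.1 KD. Of 9 megakaryocyte markers 4 rose and 1 fell in each knockdown, with sums of 46.4 to 58 in EV, 54.1 to 82 in Gata2 KD and 119 to 135 in Pu.1 KD. The summed levels of the neutrophil, the monocyte and macrophage, and the eosinophil markers were highest in Gata2 KD and lowest in Pu.1 KD, as was the level of Itgam, and the part of any of these cell types in the changes of Itgam, Itgb7 and Itga6 was not tested. In RNA from a whole sorted sample, fewer cells of a type and less RNA per cell cannot be told apart.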

How the data were processed

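Total RNA of 9 samples was labeled with Cy3 and hybridized, 1 sample per array, to Agilent mouse genome arrays in single color. Groups and replicate numbers came from the sample titles, and slide numbers from the scanner files. Per array, the authors deposited the output of Agilent Feature Extraction, version 10.1.1.1 per the file headers, holding intensity values (processed signal, median signal and local background) with no normalization between arrays. A table of log2 values was also deposited. It tracked the log2 median signal of each array (r of 0.997 or more) and had column medians of 7.00 to 7.05. Its centring and further steps are not given in the sources used here, and it served as an alternative only.

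The log2 processed signal of non-control spots was set relative to the 75th percentile of the array. Outlier-flagged spots (47 to 96 per array) were left out and spots of a probe averaged. A probe was tested when well above background on at least 3 arrays (50% of its spots or more) with at least 2 values in every group. Probes were named by accession through a RefSeq table (GRCm38.p6), which named 23374 of 41174. The array design uses another build, so no probe coordinates are given. A gene was read from its brightest tested probe. limma 3.58.1 in R 4.3.3 was fitted over all 9 arrays (eBayes, two-sided, Benjamini-Hochberg over all tested probes, threshold 0.05) and was checked on simulated data. The simulated noise was independent between arrays with no slide effect, and the planted changes were wider than every member change against EV. That check therefore covers the working of the fit and not its error rates or power in these data. The precision is limited by the 3 arrays per group. The highest correlation between 2 arrays of a group was 0.992, a value that cannot tell technical replicates from separate cultures.

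The members and gene lists were chosen with earlier results of these data known. Of the other adhesion genes, those named are up to 3 called genes in each direction per list and comparison against EV with the largest change, and partners of members. Some genes that this rule picks are not reported here. Cytip, Pxn, Vav3, Selp, Tln1 and Fermt3 were added after their values were seen. The genes most like a member are given for the 2 members called against EV. The alternatives were the replicate number or the slide as a block, normexp on the median and background signals (offset 50), scaling by quantiles or to the median, no filter or a filter on all 9 arrays, keeping flagged spots, the trend and robust options of eBayes, the table of log2 values, a fit to the groups compared alone, the mean of a gene's probes, and each array left out in turn.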

Additional observations from a re-analysis of the deposited data

How the results depend on the processing

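Each comparison was recomputed under 21 alternatives. Of the 567 recomputed member changes, 524 kept their direction and their side of the threshold, 17 lost a call, 15 gained one and 11 changed sign, none of the last being called. The 2 member calls in Gata2 KD were kept under every alternative. In Pu.1 KD, where no member was called, 1 was called with the slide as a block, 1 after quantile normalization and 2 on the deposited log2 values. Of the 4 calls in the direct comparison, 2 were left with the replicate block and 2 with scaling to the median. In that comparison 6 of 9 members were called with the slide as a block, and 2 to 5 when 1 array was left out. For the other adhesion genes, the 17 calls in Gata2 KD became 11 with the replicate block, 11 with only the groups compared in the fit and 10 to 17 without 1 array, and the 9 calls in Pu.1 KD became 1 with the replicate block, 2 with scaling to the median, 14 on the deposited log2 values, 1 with only the groups compared and 1 to 8 without 1 array. The cause was not tested.

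Over all tested probes, the 1890 calls in Gata2 KD became 1167 with the replicate block, 2924 with the slide as a block, 1191 with scaling to the median, 1106 with only the groups compared and 1047 to 1695 without 1 array. The 962 calls in Pu.1 KD became 227, 1830, 368 and 219 under the same settings, 1565 with the trend and robust settings, 1785 on the deposited log2 values and 274 to 822 without 1 array. The 3517 calls in the direct comparison became 2266 with scaling to the median and 2211 to 3941 without 1 array. Same-numbered arrays correlated in their deviations from the group means at -0.55 to 0.65, so the numbers were not taken as pairs. Arrays of the same slide correlated at -0.04 to 0.72, and arrays that shared neither number nor slide at -0.63 to 0.35. The slide is not a term of the reported values, as the study's methods name limma and no block. The member changes that missed the threshold but passed it with the slide as a block are given with the results. Each of them also passed under other alternatives.

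The sign changes were all within 0.073 of 0. Itgax in Pu.1 KD was 0.013 with scaling to the median, and Itgal in the direct comparison was 0.033 with normexp and 0.039 on the deposited log2 values. Without 1 array, Itgax ran from -0.043 to 0.149 in Gata2 KD, from -0.131 to 0.061 in Pu.1 KD and from -0.002 to 0.178 in the direct comparison, and Itgal ran from -0.131 to 0.073 in the last.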
